A study of Mus musculus with 2 samples.

Results

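Genes of the contractile apparatus, 10 of 56991 gene entries in the table, were followed in a pair of xenografts: MYL9, TPM1, CALD1, MYH11, CNN1, DES, ACTA2, TAGLN, TPM2 and ACTG2. They were taken by symbol and chosen by their FPKM and the metastatic to primary ratio in these same libraries, so their differences are given as a description. MYL9, TPM1 and CALD1 are also common in epithelial cells, whereas MYH11, CNN1 and DES are mainly smooth muscle genes (DES also of striated muscle). RNA had been sequenced from 2 patient-derived xenografts, human tumors carried in athymic nude mice (strain Foxn1nu). The primary library came from a primary gastroenteropancreatic neuroendocrine tumor in the flank, and the metastatic library from a metastatic tumor of that type in the peritoneal cavity. The labels name no treatment and do not say whether 1 patient gave both tumors; both were dissociated before RNA extraction, and nude mice still supply their own fibroblasts, vessels and smooth muscle to a graft. Each group held 1 library, so no test was possible, no difference had a replicate check, and origin and graft site cannot be told apart.

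In smooth muscle, myosin II filaments pull on actin filaments after the regulatory light chain is phosphorylated by myosin light chain kinase and other kinases. Tropomyosin, caldesmon and calponin lie along the actin filament and modulate this pull, transgelin crosslinks actin, and desmin filaments tie the contractile units together. Many of the genes carry binding sites for serum response factor (SRF), which works with myocardin in smooth muscle and with the related MRTF proteins in other cells. Epithelial and tumor cells run a nonmuscle version of the same machine, built from close relatives of the muscle proteins.

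Values were FPKM, fragment numbers scaled to transcript length and to a library total, as deposited. The primary column added up to 784987 and the metastatic column to 885319, a ratio of 1.13, and read depth is unknown. Each log2 ratio is the metastatic value over the primary one after 1 FPKM was added to both, so differences of low genes are understated. A gene counted as expressed at 1 FPKM or more in at least 1 library, and as higher or lower where this ratio reached 2-fold. Of 13811 expressed entries, 18.6% differed by 2-fold in either direction, 9.22% as higher and 9.35% as lower. These shares are the background for the counts of each list below. The median log2 ratio of all expressed entries was 0.03. Rescaling both libraries to the same sum moved that median to -0.13. Where a pair of FPKM values is given, the primary tumor comes first and the metastatic tumor second. Epithelial keratins were abundant in both tumors, with KRT8 at 649 and 1423 FPKM. Neuroendocrine markers ranged from low ones, with SYP at 1.63 and 1.96 FPKM, to UCHL1 at 225 and 705 FPKM.

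The members spanned a wide range of levels. TPM2, which encodes beta-tropomyosin, was the most abundant, at 420 FPKM in the primary tumor and 773 FPKM in the metastatic tumor. It ranked 235 and 175 among the expressed entries of the respective library. Of the widely used members, caldesmon (CALD1) and alpha-tropomyosin (TPM1) lay in the middle, at 34.8 and 30.01 FPKM and at 30.3 and 43.7 FPKM. TAGLN, encoding transgelin, was at 19.8 and 14.4 FPKM. All these genes were well above the expression limit in both tumors, and CALD1 and TPM1 changed places in order.

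MYL9, which encodes a regulatory light chain of smooth muscle and nonmuscle myosin II, was at 12.2 FPKM in the primary tumor and 81.5 FPKM in the metastatic tumor. It stood below CALD1, TPM1 and TAGLN in the primary library and above them in the metastatic one, moving from rank 6402 to rank 1686. DES, the muscle intermediate filament desmin, was at 1.40 and 7.82 FPKM, and the smooth muscle calponin CNN1 at 0.707 and 3.41 FPKM. Both were low genes in both libraries, at ranks 7636 and 9785 in the metastatic tumor where they were higher.

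Both smooth muscle actins and MYH11 had the lowest listed values of the members in both libraries. ACTA2, the alpha actin of vascular smooth muscle and myofibroblasts, was at 0.441 FPKM in the primary tumor and 0.206 FPKM in the metastatic tumor. ACTG2, the gamma actin of visceral smooth muscle, was at 0.324 and 0.418 FPKM. Both stayed under 1 FPKM in both libraries. MYH11, the smooth muscle myosin heavy chain, was listed at 0 in both. Its label stands on 2 rows of the table, and labels on several rows were often at 0. Among labels that match the symbol of a mouse protein-coding gene, 66.5% of the 768 on 2 or more rows were at 0 in both libraries, against 10.2% of the 13664 on 1 row. ACTN4 and ZYX, actin-binding genes of most cells, also stand on 2 rows each and were listed at 0, so the 0 of MYH11 cannot be read as a measured absence.

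**Figure D1:**
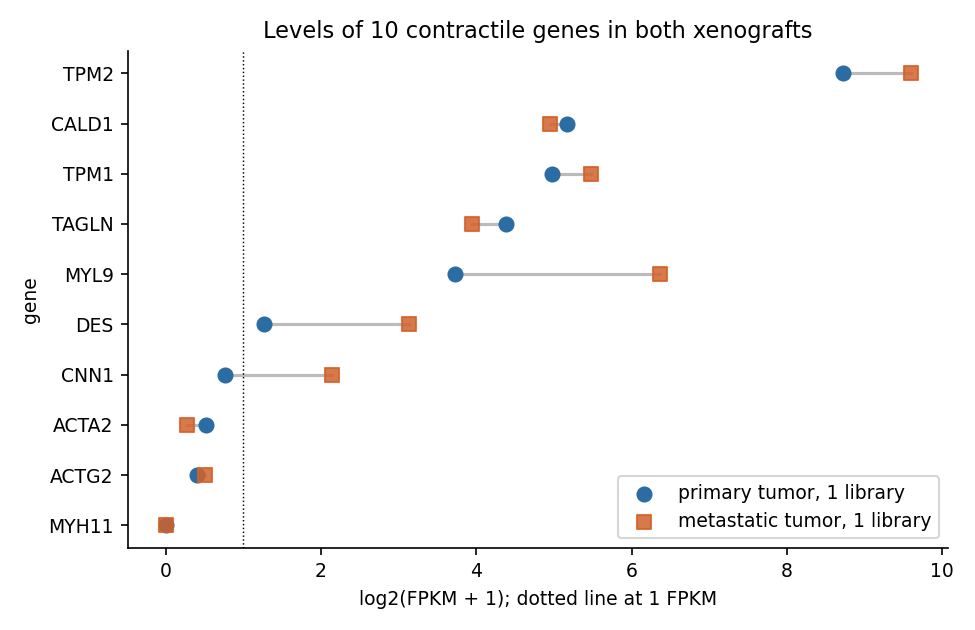
Level of each of the 10 members as log2(FPKM + 1), with circles for the primary and squares for the metastatic library, 1 library each, and a dotted line at 1 FPKM. MYL9, DES and CNN1 show the widest gaps between the tumors, and ACTA2, ACTG2 and MYH11 lie left of the dotted line in both.

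Of the members, 3 were at least 2-fold higher in the metastatic tumor and 0 were lower. They were 3 of all 10 members, and 3 of the 7 that were expressed, where 9.22% of all expressed entries were at least 2-fold higher and 9.35% lower. Nothing is read from that contrast, because the members had been chosen with these values known. CNN1 also passed the expression limit only in the metastatic library. MYL9 had a log2 ratio of 2.64, a 6.67-fold difference in FPKM, and ranked 98 from the top among the expressed entries. DES had a log2 ratio of 1.87, with a 5.57-fold difference in FPKM, and ranked 191. CNN1 had a log2 ratio of 1.37, with a 4.82-fold difference in FPKM, and ranked 537. At a 4-fold threshold, with 1 FPKM added, 1 member, MYL9, was higher; at a pseudocount of 0.1 the log2 ratios of DES and CNN1 were 2.40 and 2.12, past 4-fold as well.

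The other 4 expressed members were within 2-fold and did not share a direction. TPM2 had a log2 ratio of 0.88 and TPM1 of 0.51, while CALD1 was at -0.21 and TAGLN at -0.43. The median over the 7 expressed members was 0.88, against 0.03 over all expressed entries, and it was 0.31 over all 10 members. Over the pseudocounts, filters and scalings tried, the log2 ratio ran from 2.49 to 2.73 for MYL9, from 1.81 to 2.40 for DES and from 1.31 to 2.12 for CNN1. It stayed within 2-fold for TPM2, which ran from 0.71 to 0.88, and below 0 for CALD1 and TAGLN.

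**Figure D2:**
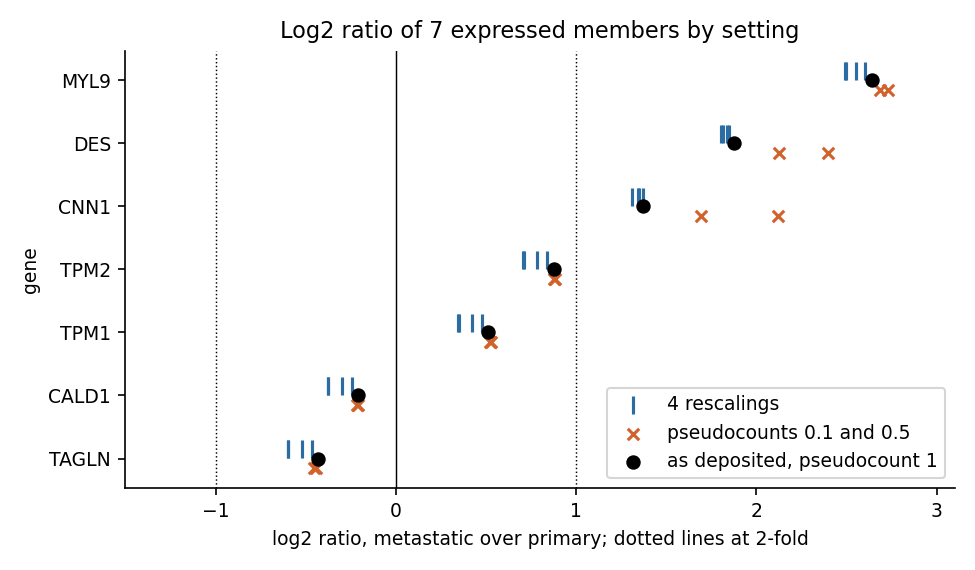
Log2 ratio, metastatic over primary, of the 7 expressed members, with black dots for the deposited values at a pseudocount of 1, blue ticks for 4 rescalings and crosses for pseudocounts of 0.1 and 0.5. MYL9, DES and CNN1 lie right of the 2-fold line under each of these settings, and smaller pseudocounts move only the low genes DES and CNN1 far.

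The members in wide use and the smooth muscle members did not form blocks. Among the widely used ones, MYL9 was the member with the largest ratio of the whole group, while TPM1 and CALD1 were within 2-fold on either side of 0. Their median log2 ratio was 0.51. Among the smooth muscle members, CNN1 and DES were both higher, with a median of 1.62 over these 2 genes, and MYH11 had no usable value. The difference of the medians, wide use minus smooth muscle, was -1.11, and with MYH11 entered at 0 and no filter it was -0.86. Nothing is read from this difference either, because the members had been chosen with these values known. Of the 2 smooth muscle genes in it, CNN1 passed the expression limit only in the metastatic library. Of the remaining members, TPM2 and TAGLN leaned in opposite directions and both smooth muscle actins were under the limit. CALD1, TPM1 and TPM2 each make muscle and nonmuscle forms by splicing, and values per gene do not separate these.

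Shares within a protein family do not depend on how a library is scaled, so each member was set against its nonmuscle relatives in the same library. MYL9 made up 1.35% of the summed FPKM of MYL9, MYL12A and MYL12B in the primary tumor and 4.71% in the metastatic tumor, a share 3.50 times as large. Its relatives were far more abundant, with MYL12A at 543 and 950 FPKM and MYL12B at 351 and 697 FPKM, log2 ratios of 0.81 and 0.99. The 3 light chains were thus all above 0 on the log2 scale, with MYL9 furthest. These coding sequences are much alike, as are those of the actins, so the split of reads between family members is uncertain.

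CNN1 was 0.636% of summed calponin FPKM in the primary tumor and 2.54% in the metastatic tumor. The calponin CNN2, found in many nonmuscle cells, was also higher, at 9.98 and 28.0 FPKM, and its share went from 8.98% to 20.9%. CNN3, the most abundant calponin, was at 100.5 and 103 FPKM and supplied 90.4% and 76.6%. The calponin pool thus held more CNN1 and CNN2 relative to CNN3 in the metastatic library, with CNN1 still the smallest part.

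Among tropomyosins, TPM2 supplied 34.4% in the primary tumor and 41.3% in the metastatic tumor. The nonmuscle form TPM4 was at 553 and 755 FPKM and went from 45.3% to 40.4%, so the order of the leading pair differed between the libraries by a narrow margin. TPM3 supplied 17.8% and 16.0%, and TPM1 2.49% and 2.34%. Among transgelins, TAGLN supplied 5.64% and 4.25% beside TAGLN2 at 332 and 325 FPKM.

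Muscle actins and desmin were traces of their families. ACTA2 supplied 0.0116% and 0.00498% of the summed FPKM of ACTA2, ACTG2, ACTB and ACTG1, and ACTG2 0.00856% and 0.0101%. The cytoplasmic actins ACTB and ACTG1 made up nearly all the rest, at 2341 and 2773 FPKM and at 1449 and 1366 FPKM. Of the sum of desmin and vimentin, DES supplied 0.0296% and 0.170%, since vimentin (VIM) was at 4745 and 4598 FPKM. The gain of DES relative to VIM was 5.74-fold, from a very small base.

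**Figure D3:**
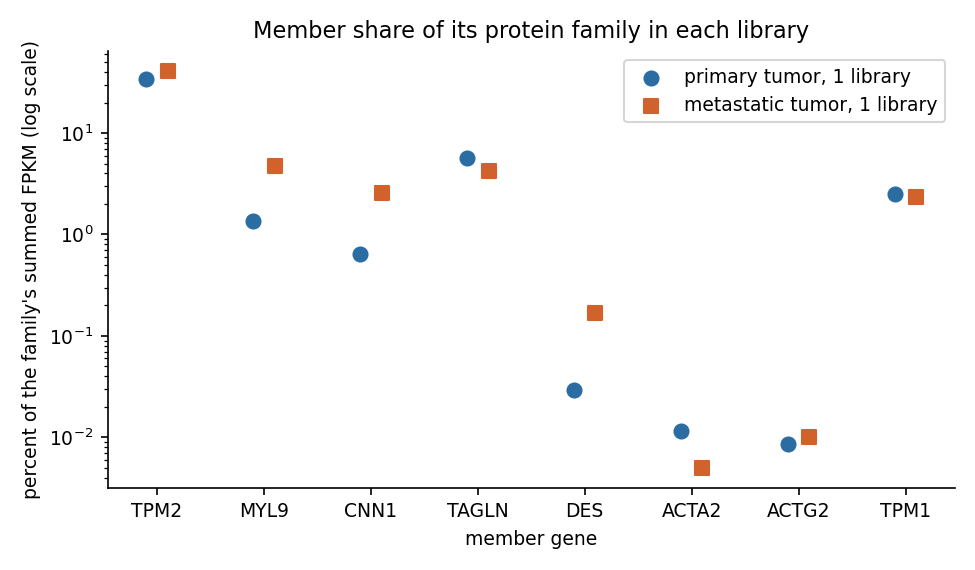
Percent of a family's summed FPKM supplied by each member (log axis), with circles for the primary and squares for the metastatic library; DES is set against DES plus VIM. MYL9, CNN1 and DES take larger shares in the metastatic library, TPM2 is the only one plotted above 10%, and ACTA2 and ACTG2 lie near 0.01%.

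The nonmuscle counterparts had log2 ratios from -0.84 to 1.40. Of 13 listed genes, 12 had an entry of their own and all 12 were expressed. CNN2 alone was past 2-fold, as a higher gene, where 9.22% of all expressed entries were higher and 9.35% lower. The median log2 ratio of the list was 0.35. The main nonmuscle myosin heavy chain, MYH9, was at 282 and 263 FPKM. MYH14 was at 5.37 and 10.8 FPKM and MYH10 at 16.3 and 8.65 FPKM, log2 ratios of 0.88 and -0.84 in opposite directions. MYH10 was past 2-fold, at -1.01, when both libraries were scaled to the same sum. The essential light chain MYL6 shares a locus with MYL6B in the table, at 1873 and 2467 FPKM.

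Among regulators of contraction, none reached a 2-fold higher level. Of 21 listed genes, 18 had their own entry and all 18 were expressed; 3 were lower by 2-fold or more, 0 were higher, and the median log2 ratio was -0.07. Over all expressed entries 9.35% were lower. Scaled to the same sum, 5 of the list were lower, ARHGEF12 among them at -1.07. MYLK, the kinase that phosphorylates the regulatory light chain, was at 4.94 and 2.64 FPKM. The kinases ROCK1 and ROCK2 were at 24.1 and 26.0 FPKM and at 9.18 and 5.56 FPKM, all within 2-fold. The 3 lower genes were the small GTPase RHOB at 119 and 29.3 FPKM, the calcium release channel ITPR1 at 29.8 and 8.91 FPKM, and RGS2, a brake on G protein signaling, at 71.9 and 34.3 FPKM. RHOA, a small GTPase that activates ROCK1 and ROCK2, was among the most abundant entries of the list, at 316 and 350 FPKM.

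Other smooth muscle genes ranged from some listed at 0 to abundant ones. Of 26 listed, 15 were expressed, 3 of them higher and 3 lower, where 9.22% of all expressed entries were higher and 9.35% lower. The median log2 ratio was 0.06 and became -0.11 after scaling to the same sum. LMOD1, MYOCD, ITGA8, CASQ2 and PCP4 were listed at 0 in both libraries, each on a single row. MYOCD encodes myocardin, and LMOD1 an actin nucleator of smooth muscle. SYNPO2, KCNMB1 and PLN were at 0 in the primary tumor and under 0.1 FPKM in the metastatic tumor.

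The higher genes of this list were NEXN, HSPB7 and SYNM. NEXN, an actin-binding protein, was at 6.36 and 24.3 FPKM, a log2 ratio of 1.78. HSPB7, a small heat shock protein of muscle, was at 0.967 and 3.89 FPKM, past the expression limit only in the metastatic library. SYNM, an intermediate filament protein that binds desmin, was at 5.84 and 12.7 FPKM, a log2 ratio at the 2-fold limit that was inside it under all 4 rescalings (0.86 to 0.97). The lower genes were PGM5 at 27.1 and 6.998 FPKM, the focal adhesion protein gene LPP at 16.8 and 6.24 FPKM, and CAV1, the coat protein of caveolae, at 8.97 and 3.64 FPKM. The most abundant by the mean of both libraries were CSRP1, at 141 and 228 FPKM, and smoothelin (SMTN), at 53.0 and 42.4 FPKM, with SVIL close to SMTN at 56.3 and 38.7 FPKM. All 3 were within 2-fold.

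Of 14 genes that link actin to adhesions and membranes, 12 were expressed, and 0 were 2-fold higher or lower, where 18.6% of all expressed entries were. Their median log2 ratio was -0.20, or -0.37 after scaling to the same sum. The filamin FLNA was the most abundant, at 665 and 1195 FPKM, and it and FLNC, at 12.9 and 25.1 FPKM, had log2 ratios of 0.84 and 0.91. Among regulators tied to SRF and to the YAP pathway, 14 of 15 were expressed, with 0 higher and 1 lower. The shares over all expressed entries were 9.22% higher and 9.35% lower. SRF was at 9.29 and 13.3 FPKM, and its cofactor genes MRTFA and MRTFB at 5.22 and 7.10 FPKM and at 7.72 and 6.14 FPKM. The lower gene was YAP1, at 31.4 and 14.2 FPKM. FHL2 and WWTR1 were the most abundant, at 68.2 and 90.8 FPKM and at 67.2 and 45.7 FPKM.

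Genes that respond to SRF or YAP were a short list of 6, of which 5 had their own entry and were expressed. ANKRD1 was the only higher gene and 0 were lower, where 9.22% of all expressed entries were higher and 9.35% lower. Only the metastatic library put ANKRD1 past the expression limit, at 1.28 FPKM against 0 FPKM in the primary library. CCN1 and CCN2, secreted matricellular proteins, were at 54.5 and 105 FPKM and at 4.02 and 8.17 FPKM. Both were inside 2-fold on the scale used, while CCN2 differed 2.03-fold in FPKM and was past the limit at a pseudocount of 0.1. AMOTL2 and LATS2 were near equal in both tumors, with log2 ratios of 0.02 and 0.06. The median of the 5 was 0.87.

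**Figure D4:**
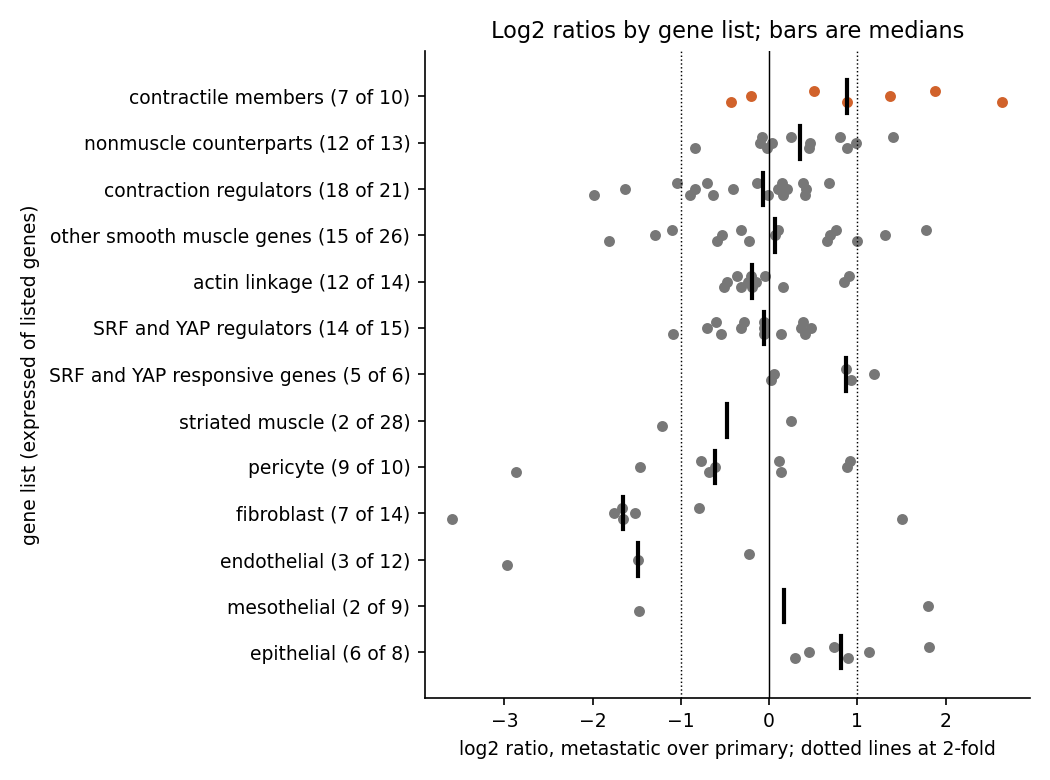
Log2 ratio, metastatic over primary, of each expressed gene by list, with black bars at the medians, dotted lines at 2-fold and the number expressed of those listed in parentheses. The contractile members spread from -0.43 to 2.64, regulators of contraction from -1.98 to 0.67 and other smooth muscle genes from -1.81 to 1.78. Medians are 0.88 for the members, -0.07 for regulators of contraction, 0.06 for other smooth muscle genes and -1.65 for fibroblast genes.

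Genes of striated muscle, the other tissue that makes desmin, were mostly under the expression limit. Of 28 listed, 25 had their own entry, 23 of these were under 1 FPKM in both libraries and 11 were listed at 0 in both. The myogenic factors MYOD1, MYOG, MYF5 and MYF6 were among those at 0. TNNI2, also at 0 in both, and TNNT3, at 0.0463 and 0 FPKM, stand on 2 rows each, so their 0 cannot be read as a measured absence. TNNT1, a slow troponin T, was the exception in level, at 31.0 and 12.8 FPKM, and the embryonic myosin MYH3 was at 2.25 and 2.87 FPKM.

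Markers of the other cells a graft can hold were read beside these values. In bulk RNA, fewer cells of a type and less RNA per cell cannot be told apart. The build was the human GRCh38, and how mouse reads were handled is not stated in the labels or processing notes. The marker values therefore cannot be read as amounts of host cells. Pericyte markers, of cells that share many contractile genes with smooth muscle, summed to 49.2 FPKM in the primary tumor and 43.9 FPKM in the metastatic tumor. Of 10 pericyte markers 9 were expressed, 0 higher and 2 lower, where 9.22% of all expressed entries were higher and 9.35% lower. Their median log2 ratio was -0.61, and HIGD1B was at 0 in both. The potassium channel gene KCNJ8 was at 14.3 and 15.6 FPKM and RGS5 at 7.52 and 8.32 FPKM. PDGFRB, at 5.01 and 2.93 FPKM, and NOTCH3, at 4.55 and 2.24 FPKM, stood lower within 2-fold. So did CSPG4, at 2.59 and 1.23 FPKM, with a log2 ratio of -0.68 that became -1.01 at a pseudocount of 0.1. The 2 lower ones were COX4I2, at 6.98 and 0.0903 FPKM, and ABCC9, at 1.93 and 0.0676 FPKM. Both passed the expression limit only in the primary library. Without COX4I2 the list summed to 42.2 and 43.8 FPKM. MCAM, at 3.25 and 7.01 FPKM, and ENPEP, at 3.02 and 6.39 FPKM, stood higher, with log2 ratios of 0.91 and 0.88 that became 1.08 and 1.06 at a pseudocount of 0.1. The part of pericytes in the values of MYL9, DES and CNN1 was not tested.

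Fibroblast markers, whose cells can turn on ACTA2 and TAGLN as myofibroblasts, summed to 556 and 178 FPKM. Of 14 listed, 13 had their own entry and 7 of these were expressed. Among the 7, 1 was higher and 5 were lower, where 9.22% of all expressed entries were higher and 9.35% lower. The median log2 ratio of the 7 was -1.65. LUM, POSTN, THY1, DPT, MFAP5 and PRRX1 were under 1 FPKM in both libraries. COL1A2 gave most of the sum, at 474 and 149 FPKM, while FBLN1 was within 2-fold at 34.2 and 19.4 FPKM. The other lower genes were COL3A1 at 23.9 and 1.07 FPKM, COL1A1 at 12.6 and 3.02 FPKM, FAP at 6.96 and 1.53 FPKM and COL6A3 at 2.64 and 0.267 FPKM. DCN went the other way, at 0.370 and 2.89 FPKM. COL6A3 passed the expression limit only in the primary library and DCN only in the metastatic one. The fibroblast sum was lower in the metastatic library, where TAGLN was lower within 2-fold and MYL9, DES and CNN1 were higher. ACTA2 was under the expression limit in both libraries, so its direction is not read. The part of fibroblasts in these values was not tested.

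Vessel and mesothelial markers were mostly near 0. Endothelial markers summed to 27.2 and 5.92 FPKM, with 3 of 12 expressed, 0 higher and 2 lower. The share lower over all expressed entries was 9.35%. KDR was at 0 in both, and PECAM1 at 0.237 and 0.0833 FPKM. The 2 lower genes, EGFL7 at 19.1 and 1.58 FPKM and CLDN5 at 5.73 and 1.41 FPKM, gave most of the sum. Mesothelial markers, of the lining of the peritoneal cavity, summed to 1.96 and 2.88 FPKM. CALB2, LRRN4 and ITLN1 were at 0 in both, and CALB2 stands on 2 rows. WT1 was higher, at 0.0477 and 2.65 FPKM, while UPK3B was at 1.78 FPKM in the primary tumor and listed at 0 in the metastatic tumor. WT1 passed the expression limit only in the metastatic library and UPK3B only in the primary one. UPK3B also stands on 2 rows, so its 0 cannot be read as a measured absence. MSLN was at 0.0487 and 0.1203 FPKM.

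Immune markers summed to 5.65 and 13.5 FPKM, of which LYZ alone was at 2.72 and 11.97 FPKM. CSF1R, the other expressed one of 9 with their own entry, was at 1.06 and 0.243 FPKM, and AIF1 and LST1 were at 0 in both, on several rows each. Myoepithelial markers, of the contractile cells of glands, summed to 52.5 and 22.6 FPKM. Nearly all of this was KRT17, at 51.6 and 21.3 FPKM, while KRT5, KRT14, TP63 and CDH3 were under 0.2 FPKM in both tumors and OXTR was at 0.741 and 1.08 FPKM.

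Epithelial markers were also higher in sum in the metastatic tumor. They summed to 1298 and 2480 FPKM, with 6 of 7 own entries expressed, 2 higher and 0 lower, and a median log2 ratio of 0.82. The share higher over all expressed entries was 9.22%. KRT8 had a log2 ratio of 1.13, or 0.96 after scaling to the same sum. KRT18 was at 541 and 904 FPKM, and CLDN4, the other higher gene, at 2.30 and 10.6 FPKM. Neuroendocrine markers summed to 235 and 708 FPKM, nearly all of it UCHL1, at 225 and 705 FPKM. Of 8 neuroendocrine markers with their own entry, 5 were expressed. UCHL1 was the 1 higher gene and 2 were lower, where 9.22% of all expressed entries were higher and 9.35% lower. The lower ones were INSM1, at 3.54 and 0.271 FPKM, and SCG2, at 2.62 and 0.340 FPKM. Both passed the expression limit only in the primary library. CHGB, at 1.64 and 0.336 FPKM, had a log2 ratio of -0.98 and was past 2-fold under all 4 rescalings and both smaller pseudocounts. CHGA was at 0 in both, on 2 rows. Whether tumor cells or host cells gave the values of MYL9, DES and CNN1 was not tested.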

How the data were processed

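The authors deposited FPKM values for both libraries in a table of 62573 rows. Per the submitters' processing notes, the tools were STAR 2.7.6a, Cufflinks 2.2.1 and bcl2fastq 2.18.0.12 and the build was GRCh38, in no stated order. The treatment of mouse reads, like the annotation and any filter, is not given in the sources used here. Rows with 1 label were summed, and all 10 members stood on rows of their own, MYH11 on 2. Of all rows, 1734 name several symbols; a gene sharing a locus with another gene was not counted in its list. The pseudocount and the expression limit were 1 FPKM. With 1 library a group there was no test. The members and the 15 lists set beside them were chosen with earlier results of these data known. Named genes were all members and counterparts, and in each other list those past 2-fold plus the 2 of highest mean level; ROCK1, ROCK2, MYLK, SRF, MRTFA, MRTFB and the other genes named below these limits were chosen after their values were seen. Some genes that the rule takes are left out of the text. Calculations used Python 3.11.15, pandas 2.3.3 and numpy 2.4.6 and were tested on simulated data. Alternatives were pseudocounts of 0.1 and 0.5, a filter of 5 FPKM or none, a threshold of 4-fold, 4 scalings (to a sum of 1000000 with and without mitochondrial and short or non-polyadenylated genes, by the median ratio, and by the percentile 75), the highest row in place of the sum, and no merged loci. A sum of pericyte markers without COX4I2 was added after seeing the data.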

Additional observations from a re-analysis of the deposited data

How the results depend on the processing

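Of the members, 3 were at least 2-fold higher and 0 lower under both other pseudocounts, without a filter, under the 4 scalings, with the highest row of each label and without merged loci. With a filter of 5 FPKM, which removes CNN1, 2 were higher, and at the 4-fold threshold 1 was. The difference of medians, wide use minus smooth muscle, was -0.86 without a filter, where MYH11 enters at 0, and ran from -1.73 to -1.11 under the other settings. The median of endothelial markers changed sign without a filter, to 0.014, where 9 genes under 1 FPKM enter. That of fibroblast markers came inside 2-fold at the same setting, where 6 genes under 1 FPKM enter. No paired analysis was possible because each group holds 1 library. Depth is unknown, so counting error could not be given for low genes such as CNN1, DES, ACTA2 and ACTG2.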
